A study of Mus musculus with 8 samples.

Results

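Translation initiation factors were followed here on the arrays of a mouse macrophage study, taken as every probe whose gene symbol began with Eif, with 3 genes left out (Eif2ak2, Eif2s3x and Eif2s3y). These were 75 of the 25697 probes of the table and 51 of its 18138 gene symbols. The symbols are those of the array's design, and several are old. Eif2c1 to Eif2c4 are now Ago1 to Ago4, the Argonaute proteins that carry small RNAs, and are not initiation factors despite the name, so they are described last. Likewise Eif3eip is Eif3l, Eif3s1 is Eif3j1, Eif3s10 is Eif3a, Eif3s4 is Eif3g, Eif3s6 is Eif3e, Eif3s8 is Eif3c and Eif4el3 is Eif4e2. The probe named Eif1ay was matched to Eif1ax. All 75 probes were matched to a RefSeq gene, 67 by Entrez identifier and 8 by accession.

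The study asked how iNOS, the enzyme that makes nitric oxide in activated macrophages, affects classical (M1) activation. Bone marrow cells of female mice, 8 weeks old and labelled C57bl/6J, were grown for 7 days in GM-CSF at 10 ng/ml. WT cells and iNOS-/- cells (the methods name the line B6.129P2-Nos2tm1Lau/J) were left unstimulated or given LPS at 200 ng/ml plus IFN-γ at 10 ng/ml for 6 h, which gave 4 groups of 2 arrays. Nothing states that the arrays of a group came from separate mice or cultures, so p-values measure the spread between arrays, which may be technical.

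Initiation is the step at which a ribosome is placed on the start codon of an mRNA. The eIF4F complex binds the cap and unwinds the leader, eIF3 holds the mRNA and the small ribosomal subunit together, and eIF2 brings the initiator tRNA and is recharged with GTP by eIF2B. The 4E-BP proteins block eIF4E until mTOR phosphorylates them, and kinases that phosphorylate eIF2 slow recharging. In macrophages both controls are known to shape how much cytokine protein is made from an mRNA. The arrays measured mRNA, not protein or phosphorylation.

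Levels are given as log2 of the scaled probe intensity, and differences as log2 fold changes, M1 minus unstimulated or iNOS-/- minus WT. A change was called at a limma adjusted p under 0.05, adjusted over all 13868 probes tested. Levels of different probes cannot be set against each other, and less RNA per cell and fewer cells of a type cannot be told apart in such samples. Of the 75 probes, 58 were detected on all 8 arrays and 11 on none, and 63 probes of 43 gene symbols were tested. Those listed as detected on no array included the single probe for Eif2s1 (the alpha subunit of eIF2) and both for Eif5b (which joins the ribosomal subunits). The others were for Eif2ak4, Eif4ebp3, Eif5a2, Eif4e1b, Eif1ay and Eif2c1. An undetected probe does not show that its gene was not expressed.

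The Nos2 probe, for the targeted gene, was not detected on the unstimulated arrays and read 7.47 and 7.05 on the WT M1 arrays against 7.49 and 7.67 on the iNOS-/- M1 arrays. It does not separate the genotypes, and the direction of every genotype comparison therefore rests on the labels. Macrophage markers were present in all groups, with none of 11 genes undetected and a summed intensity from 47350 to 68320. The summed intensity of 10 dendritic cell genes was 961 to 976 in WT unstimulated arrays, 17270 to 17900 in WT M1, 14180 to 15060 in iNOS-/- unstimulated and 38450 to 40170 in iNOS-/- M1, with Flt3 undetected in every group. Bright genes weigh most in such a sum, and Ccl17 read 9.05 and 9.12, 13.42 and 13.49, 13.38 and 13.23, and 14.21 and 14.26 in these groups. Cd209a was undetected in WT unstimulated and iNOS-/- M1 arrays only. Of 9 tested dendritic cell probes, 7 rose and 1 fell in the iNOS-/- response (77.8% and 11.1%, against 25.2% and 25.1% of all probes). Of 12 genes of dividing cells the sums were 1003 to 1071, 3103 to 3201, 3599 to 3654 and 1598 to 1599, in the same order. Granulocyte genes (9) summed to 1144 to 1172, 1417 to 1526, 1701 to 1750 and 3876 to 4013. These levels move with the groups compared below, and their part in the results was not tested.

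Most changes of the member probes were modest. Of the 63 tested probes, 45 were called in at least 1 of the 5 comparisons and 18 in none, and Eif1a alone was called in all 5. The 63 include the Argonaute and Eif4a3 probes. The matching share of all probes was not counted. Each single comparison called 32.2% to 50.3% of them, which is not a share over the 5 together. Between 2 arrays of 1 group the median absolute difference over the tested members was 0.0817 to 0.15. It was 0.349 to 0.449 between WT unstimulated and WT M1 arrays, and 0.209 to 0.249 between WT M1 and iNOS-/- unstimulated arrays, a smaller distance than between any other pair of groups.

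In WT cells, activation raised 16 of the 63 probes and lowered 6, against 20.8% of all probes tested called higher and 14.3% called lower. In iNOS-/- cells it raised 22 and lowered 5, against 25.2% and 25.1%. Before stimulation, 10 probes were higher and 6 lower in iNOS-/- than in WT cells, against 16.7% and 15.4%. After activation 17 were higher and 7 lower, against 22.9% and 25.3%. The difference between the 2 responses was called for 25 probes, 12 higher and 13 lower in iNOS-/- cells, against 19.4% and 22.6%. The median log2 fold change of the members beside that of all probes was 0.21 and 0.09 for the WT response, 0.004 and 0.004 for the iNOS-/- response, 0.14 and 0 before stimulation, 0.05 and -0.03 after it, and -0.02 and -0.05 for the difference of the responses.

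The direction of these counts depended on how the arrays were scaled. Under quantile normalization the iNOS-/- response had 13 probes higher and 19 lower, the comparison after activation 12 and 14, and the difference of the responses 13 and 23. Over all 13868 probes these were 2958 and 4097, 3035 and 3538, and 2663 and 3169. Under neqc, a background correction followed by quantile normalization, the splits were 15 and 24, 13 and 18, and 14 and 25, the WT response became 16 and 11, and the comparison before stimulation 22 and 8. Over all 13868 probes the neqc splits were, in the same order, 3481 and 4559, 3711 and 3881, and 3594 and 3484. For all probes the WT response had 2745 and 3432, and the comparison before stimulation 2722 and 2953. Quantile normalization moved the median of all probes from 0.09 to -0.06 in the WT response and from 0.004 to -0.13 in the iNOS-/- response. An intercept in the scaling line moved it to -0.10 and 0.20, and to 0.33 for the difference of the responses. The probes that turned were bright ones, of eIF3, eIF4A, eIF4H and eIF5A, while Eif4ebp2, Eif4g2 at base 1672 and Eif2c3 kept their direction and call in the iNOS-/- response.

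**Figure D1:**
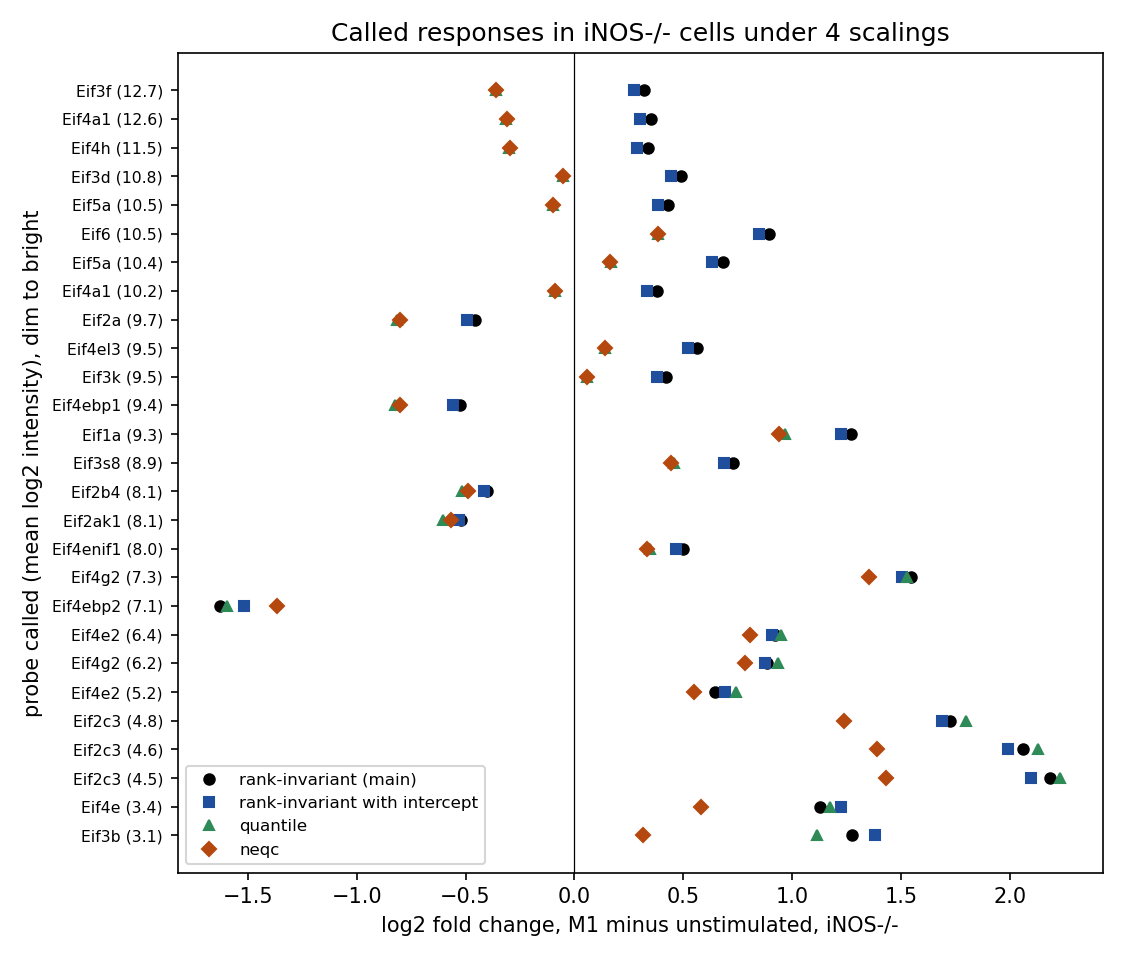
Log2 fold change of the 27 member probes called in the iNOS-/- response (22 higher, 5 lower), under the main scaling and 3 others, with probes ordered by mean level from dim at the bottom to bright at the top. Bright probes such as Eif3f and Eif4a1 lie on opposite sides of 0 under different scalings, whereas Eif4ebp2, Eif4g2 and Eif2c3 stay on 1 side.

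Eif1a and Eif5, which act in start codon selection, were lower after activation in WT cells and lower in unstimulated iNOS-/- than WT cells. Of the 5 probes of this role, 3 fell and none rose in the WT response, where 14.3% of all probes fell, and 4 were lower and none higher in iNOS-/- cells before stimulation, where 15.4% of all probes were lower. Eif1a, a form of eIF1A, which takes part in scanning for the start codon, read 9.90 and 9.73 on the WT unstimulated arrays, 8.94 and 8.91 on WT M1, 8.56 and 8.59 on iNOS-/- unstimulated, and 9.92 and 9.77 on iNOS-/- M1. Both WT M1 arrays lay below both unstimulated ones, and both iNOS-/- M1 arrays lay above theirs. Eif1a fell by 0.89 in WT cells (SE 0.102, adjusted p = 0.00274) and rose by 1.27 in iNOS-/- cells (adjusted p = 0.0004). In iNOS-/- cells it was 2.36-fold lower than in WT cells before stimulation (log2 difference -1.24, adjusted p = 0.000988) and 1.89-fold higher after it (0.92, adjusted p = 0.00149). The 2 responses differed by 2.16 (SE 0.144, adjusted p = 0.000559). Eif1a was the only member called in opposite directions in the 2 genotypes, 1 of 63 or 1.59%, where 7.9% of all probes tested were. A further 9 members (14.3%) were called the same way in both, against 15.5% of all probes.

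Eif5, which makes eIF2 give up its GTP at the start codon, had 3 probes on separate stretches of its transcript. Their first 30 bases are shown because the 3 readings came from sequences that do not overlap.
Eif5, from transcript base 422: gtcagagaccgagaactcttgcagtcgttt
Eif5, from transcript base 1386: ctccaagatcccacacatcctgaaggagat
Eif5, from transcript base 3616: cacttaggaaggtcttgggcttctgttcat
The brightest, at base 3616, read 11.14 and 11.07 on WT unstimulated arrays, 10.47 and 10.48 on WT M1, 10.52 and 10.48 on iNOS-/- unstimulated, and 10.49 and 10.48 on iNOS-/- M1. The WT unstimulated arrays stood above the other 6, which lay together. This probe fell by 0.63 in the WT response (adjusted p = 0.00332), while in iNOS-/- cells the value was -0.01 (adjusted p = 0.9). The probe at base 422 gave -0.64 (adjusted p = 0.00444) in WT, and the probe at base 1386 gave -0.30 there without passing the test (adjusted p = 0.15). All 3 were lower in iNOS-/- than in WT cells before stimulation, by 0.61 to 0.63, a comparison that uses the same WT unstimulated arrays as the WT response. The responses differed for all 3 probes in the same direction, by 0.62, 0.66 and 0.80, but the difference of the brightest was 0.09 under quantile normalization or neqc, where it was not called. For the probe at base 1386 the call before stimulation was lost without WT unstimulated 1 (-0.60), WT unstimulated 2 (-0.72) or iNOS-/- unstimulated 1 (-0.51), and that of the difference without 7 of the 8 arrays (0.52 to 0.75). Eif1b, a paralog of the start codon factor eIF1, read between 9.19 and 10.08 on the 8 arrays and was called in no comparison.

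Of the carriers of the initiator tRNA, Eif2s2 encodes the beta subunit of eIF2. Its brighter probe, at base 2283, ranged from 7.54 to 7.98 over the 8 arrays with no call. The probe at base 1614 was 0.37 lower in iNOS-/- than in WT M1 cells, with an adjusted p of 0.0499, and lost the call without 7 of the 8 arrays in turn (-0.46 to -0.25). Eif2a, an alternative carrier of tRNA, read 10.00 and 9.93, then 9.57 and 9.55, in WT cells and 10.02 and 9.85, then 9.58 and 9.39, in iNOS-/- cells. It fell in both genotypes, by 0.40 (adjusted p = 0.039) and 0.46 (adjusted p = 0.019). The WT call was lost without any 1 of 6 arrays (-0.46 to -0.39), and the iNOS-/- call without iNOS-/- unstimulated 1 or M1 2 (-0.37 for each).

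Subunits of eIF2B, which recharges eIF2, were covered by 7 probes. In WT cells 3 of them rose (42.9%, against 20.8% of all probes) and none fell. In iNOS-/- cells none rose and 1 fell (14.3%, against 25.1%). Before stimulation 3 were higher in iNOS-/- cells (42.9%, against 16.7%) and none lower. The probes that rose in WT cells and those higher before stimulation were of Eif2b5 and Eif2b2 alone. The difference of the responses was called for 5 of the 7, all lower in iNOS-/- cells, where 22.6% of all probes were, with a median of -0.71 over the 7 beside -0.05 over all probes, and for 5 and 6 under quantile normalization and neqc. Of the 5, Eif2b4 (-0.51) lost the call without any 1 of 7 arrays (-0.56 to -0.42) and Eif2b1 (-1.06) without any 1 of 6 (-1.16 to -0.79). All 7 probes were tested. Eif2b5, the catalytic epsilon subunit, read 5.54 and 5.74 on WT unstimulated arrays with its probe at base 1888, 6.62 and 6.99 on WT M1, 6.68 and 6.63 on iNOS-/- unstimulated, and 6.25 and 6.45 on iNOS-/- M1. The WT unstimulated arrays were below the other 6. It rose by 1.16 in WT cells (SE 0.164, adjusted p = 0.0052), and the value in iNOS-/- cells was -0.31 (adjusted p = 0.18). The difference of the responses was -1.47 (adjusted p = 0.00609).

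A pair of further Eif2b5 probes lay 2 bases apart and shared 48 of their 50 bases. A stretch of each is shown, with 28 of the shared bases in capitals, because nearly the same sequence gave different readings.
Eif2b5, probe from transcript base 2258: tGCCAGATCCGTGCATCTCATTGGCTGTCc
Eif2b5, probe from transcript base 2260: GCCAGATCCGTGCATCTCATTGGCTGTCct
The first rose by 0.57 in WT cells (adjusted p = 0.00822). The second gave 0.38, which did not pass the test (adjusted p = 0.11), with unstimulated arrays at 8.56 and 8.26. Eif2b2, the beta subunit, read 7.00 and 7.15, then 7.53 and 7.84, in WT cells and 7.84 and 7.79, then 7.61 and 7.59, in iNOS-/- cells. It rose by 0.61 in WT cells (adjusted p = 0.019) and was 0.74 higher in unstimulated iNOS-/- than WT cells (adjusted p = 0.011). Both of these comparisons use the same WT unstimulated arrays, which were the lowest 2 of the 8. Its WT rise was not called without WT unstimulated 1 (0.51), WT unstimulated 2 (0.66) or WT M1 2 (0.46). The other calls of Eif2b2 were lost without WT unstimulated 1 (0.64 before stimulation, -0.72 for the difference) or iNOS-/- unstimulated 1 (0.72 and -0.81). Eif2b4, the delta subunit, fell by 0.40 in iNOS-/- cells (adjusted p = 0.021), a call lost without any 1 of 3 iNOS-/- arrays (-0.42 to -0.31). Of the Eif2b1 probes, the one at base 895 was 0.80 lower in iNOS-/- M1 cells (adjusted p = 0.024), and the one at base 610 was called in no comparison, with 0.31 there (adjusted p = 0.38). The call at base 895 was lost without WT M1 1 (-0.64), iNOS-/- M1 1 (-0.89) or iNOS-/- M1 2 (-0.69).

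One eIF2 kinase could be tested. Eif2ak1, the kinase that senses heme, read 8.29 and 8.38, then 8.28 and 8.24, in WT cells and 8.24 and 8.13, then 7.71 and 7.62, in iNOS-/- cells. The iNOS-/- M1 arrays lay below the other 6. It fell by 0.52 in iNOS-/- cells (adjusted p = 0.00635) and was 0.60 lower than in WT M1 cells (adjusted p = 0.00432). The difference of the responses, -0.45 (adjusted p = 0.042), lost its call without any 1 of the 8 arrays.

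The eIF3 complex was represented by 19 probes, all tested. In the WT response 5 were called higher and none lower (26.3% higher, against 20.8% of all probes), with a median of 0.23. The iNOS-/- response depended on the scaling. It had 5 higher and none lower (26.3%, against 25.2%) with a median of -0.06, but 2 higher and 8 lower under quantile normalization and 3 and 10 under neqc. Before stimulation 3 were higher in iNOS-/- cells and none lower (15.8%, against 16.7%), all of them probes of 1 gene, Eif3i, and 8 and 9 were higher under quantile normalization and neqc. After activation 4 were higher and none lower (21.1%, against 22.9%), but 1 higher and 6 lower under quantile normalization and 2 and 7 under neqc. The difference of the responses was called for 3, all lower in iNOS-/- cells (15.8%, against 22.6%), and for 10 lower and 1 higher under both of those scalings. Eif3f read 12.41 and 12.45, then 12.81 and 12.72, in WT cells and 12.76 and 12.60, then 12.97 and 13.04, in iNOS-/- cells. It rose by 0.34 in WT cells (adjusted p = 0.045) and by 0.32 in iNOS-/- cells (adjusted p = 0.039), and the latter became -0.36 under quantile normalization or neqc. Eif3d rose by 0.45 and 0.49, and its iNOS-/- value also turned, to -0.05. The Eif3f calls were lost without any 1 of the 8 arrays in WT (0.30 to 0.39) and 7 of the 8 in iNOS-/- cells (0.23 to 0.35), and the Eif3d call in WT without WT unstimulated 1 (0.36), WT M1 1 (0.47) or WT M1 2 (0.44). Eif3s8 (Eif3c) rose by 0.73 in iNOS-/- cells (adjusted p = 0.0087) and by 0.44 or more under every scaling run.

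Eif3i, another subunit, was higher in unstimulated iNOS-/- cells. Its brightest probe, at base 1005, read 11.87 and 11.92, then 12.21 and 12.20, in WT cells and 12.34 and 12.37, then 12.62 and 12.51, in iNOS-/- cells. All 3 Eif3i probes were higher in unstimulated iNOS-/- than WT cells, by 0.46, 0.55 and 0.80 (adjusted p 0.0025 to 0.013). A pair of them share 31 bases and are not separate evidence. With 1 array left out, the probe at base 512 kept its call each time, and those at bases 1005 and 1024 lost it for 4 and 3 of the arrays (0.41 to 0.48 and 0.48 to 0.56). The genotype difference of the brightest after activation was 0.37 (adjusted p = 0.017) but -0.07 under quantile normalization. Eif3k was 0.43 higher in iNOS-/- M1 cells (adjusted p = 0.036), lost without any 1 of 6 arrays (0.34 to 0.52) and under neqc (0.18) and quantile normalization (0.19). Eif3b had a dim probe at base 235, detected on 1 of the 2 iNOS-/- unstimulated arrays, which read 1.74 and 2.85 there and 3.55 and 3.59 after activation. Its rise of 1.27 (adjusted p = 0.033) went to 0 when values under 16 were raised to 16. The brighter Eif3b probe gave -0.34 in that response (adjusted p = 0.13).

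Of the 13 tested probes of the cap-binding eIF4F group, 8 rose and none fell in the iNOS-/- response (61.5% higher, against 25.2% of all probes), with a median of 0.38 beside 0.004 for all probes. Under quantile normalization 4 were higher and 2 lower, and under neqc 5 and 3. The 8 were 3 probes of Eif4e2 (1 of them named Eif4el3), 2 each of Eif4g2 and Eif4a1, and Eif4e. Of these, Eif4e2 is known as a repressor and Eif4g2 does not bind eIF4E, and both Eif4a1 probes turned, to -0.31 and -0.09, under quantile normalization and neqc and lost their calls without any 1 of the 4 iNOS-/- arrays. Eif4a2, Eif4g1 and the Eif4e3 probes were not called, with values of -0.20, -0.37 and -0.02 to 0.19. In WT cells 2 probes rose and 2 fell (15.4% each, against 20.8% and 14.3% of all probes). Eif4g2 encodes a scaffold that lacks the eIF4E-binding part of eIF4G and serves cap-independent initiation. Its probe at base 1672 read 7.04 and 7.15 on WT unstimulated arrays, 7.92 and 7.68 on WT M1, 6.32 and 6.27 on iNOS-/- unstimulated, and 7.93 and 7.75 on iNOS-/- M1. The M1 arrays of both genotypes overlapped and lay above all unstimulated arrays, of which the iNOS-/- ones were lowest. It rose by 0.70 in WT cells (adjusted p = 0.0102, not called without WT unstimulated 1, at 0.63) and by 1.55, or 2.92-fold, in iNOS-/- cells (SE 0.123, adjusted p = 0.000383). It was 0.80 lower in iNOS-/- cells before stimulation (adjusted p = 0.00698) and the difference after it was 0.04 (adjusted p = 0.81).

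The second Eif4g2 probe, at base 3480, read 6.50 and 6.09, then 5.73 and 5.86, in WT cells and 5.73 and 6.26, then 6.99 and 6.78, in iNOS-/- cells. It rose by 0.89 in iNOS-/- cells (adjusted p = 0.025), and its WT value was -0.50 (adjusted p = 0.15), where the first probe rose. After activation it was 1.09 higher in iNOS-/- than in WT cells (adjusted p = 0.0135), where the first probe gave no call. The rise was lost without iNOS-/- unstimulated 1 (0.62), M1 1 (0.77) or M1 2 (0.98), and the difference after activation without WT M1 1 (1.02) or iNOS-/- M1 1 (0.99). The difference of the responses at this probe, 1.39 (adjusted p = 0.022), lost its call without WT unstimulated 1 (1.21), WT M1 1 (1.31), WT M1 2 (1.45) or iNOS-/- M1 1 (1.28), and with no detection filter. At base 1672 the difference of the responses was also called and in the same direction, 0.84 (0.72 to 0.95 with 1 array left out). The opening 30 bases of both are given since they differed in the WT response and after activation.
Eif4g2, from transcript base 1672: ccagctacaaggacagtcgaaggatatgcc
Eif4g2, from transcript base 3480: ttcttaactgtaattgatggttgttgccgt
Eif4g1, the main scaffold, read between 7.22 and 7.93 on the 8 arrays with no call.

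Of the helicase subunits, Eif4a2 fell in WT cells. It read 10.97 and 11.03, then 10.31 and 10.46, there and fell by 0.62 (adjusted p = 0.01), whereas it read 10.68 and 10.72, then 10.60 and 10.40, in iNOS-/- cells without a call (-0.20, adjusted p = 0.19). The WT fall was not called without WT unstimulated 2 (-0.61) or WT M1 1 (-0.54). The difference between these responses was 0.42, which did not pass the test (adjusted p = 0.078). Eif4a1, the main form, read 12.78 and 12.66, then 12.52 and 12.51, in WT cells and 12.24 and 12.37, then 12.70 and 12.62, in iNOS-/- cells. It was 0.41 lower in iNOS-/- cells before stimulation (adjusted p = 0.025), a call lost without any 1 of the 4 arrays compared (-0.50 to -0.34). Its responses differed by 0.56 (adjusted p = 0.023, lost without any 1 of 5 arrays, 0.48 to 0.56), a value that was -0.06 under quantile normalization or neqc. Of the cofactors of the helicase, Eif4h rose by 0.30 (adjusted p = 0.041) and 0.34 (adjusted p = 0.021), the iNOS-/- value turning to -0.30 under quantile normalization and neqc, and Eif4b was called in no comparison. The Eif4h calls were lost without any 1 of the 8 arrays in WT (0.23 to 0.33) and any of the 4 iNOS-/- arrays in iNOS-/- cells (0.29 to 0.37).

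Among the cap-binding proteins, Eif4e was dim, detected on 7 of the 8 arrays. It read 3.11 and 3.21, then 3.25 and 2.10, in WT cells and 3.35 and 3.37, then 4.42 and 4.55, in iNOS-/- cells. Its 2 iNOS-/- M1 arrays were the highest, 1.81 above the WT M1 arrays (SE 0.363, adjusted p = 0.011), and this fell to 0.48 with values under 16 raised to 16. Its rise in the iNOS-/- response, 1.13 (adjusted p = 0.049), lost its call without any 1 of 6 arrays (1.05 to 1.18), under quantile normalization, with the replicate block and with no detection filter. Eif4e2, a cap-binding relative that represses rather than promotes initiation, read 6.03 and 6.05, then 6.47 and 6.51, in WT cells and 6.04 and 6.07, then 6.91 and 7.05, in iNOS-/- cells with its probe at base 1140. It rose by 0.45 in WT cells (adjusted p = 0.014, not called without either WT unstimulated array or WT M1 2, at 0.42 to 0.44) and by 0.92 in iNOS-/- cells (adjusted p = 0.000696), and the rise was larger in iNOS-/- cells by 0.47 (adjusted p = 0.032), a call lost without any 1 of 7 arrays (0.39 to 0.51). The probe named Eif4el3, for the same gene, rose by 0.56 in iNOS-/- cells (adjusted p = 0.018, not called without either iNOS-/- unstimulated array or M1 1, at 0.50 to 0.60, nor under neqc or quantile normalization, at 0.14). Eif4e3 was the only gene with called probes of both signs in 1 comparison. After activation its probe at base 514 was 0.45 higher (adjusted p = 0.046) and that at base 2052 was 0.35 lower (adjusted p = 0.033) in iNOS-/- cells, and the brightest, at base 2177, gave -0.19 (adjusted p = 0.28). Each of these 2 calls was lost without any 1 of 6 arrays (0.33 to 0.56 and -0.36 to -0.31).

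**Figure D2:**
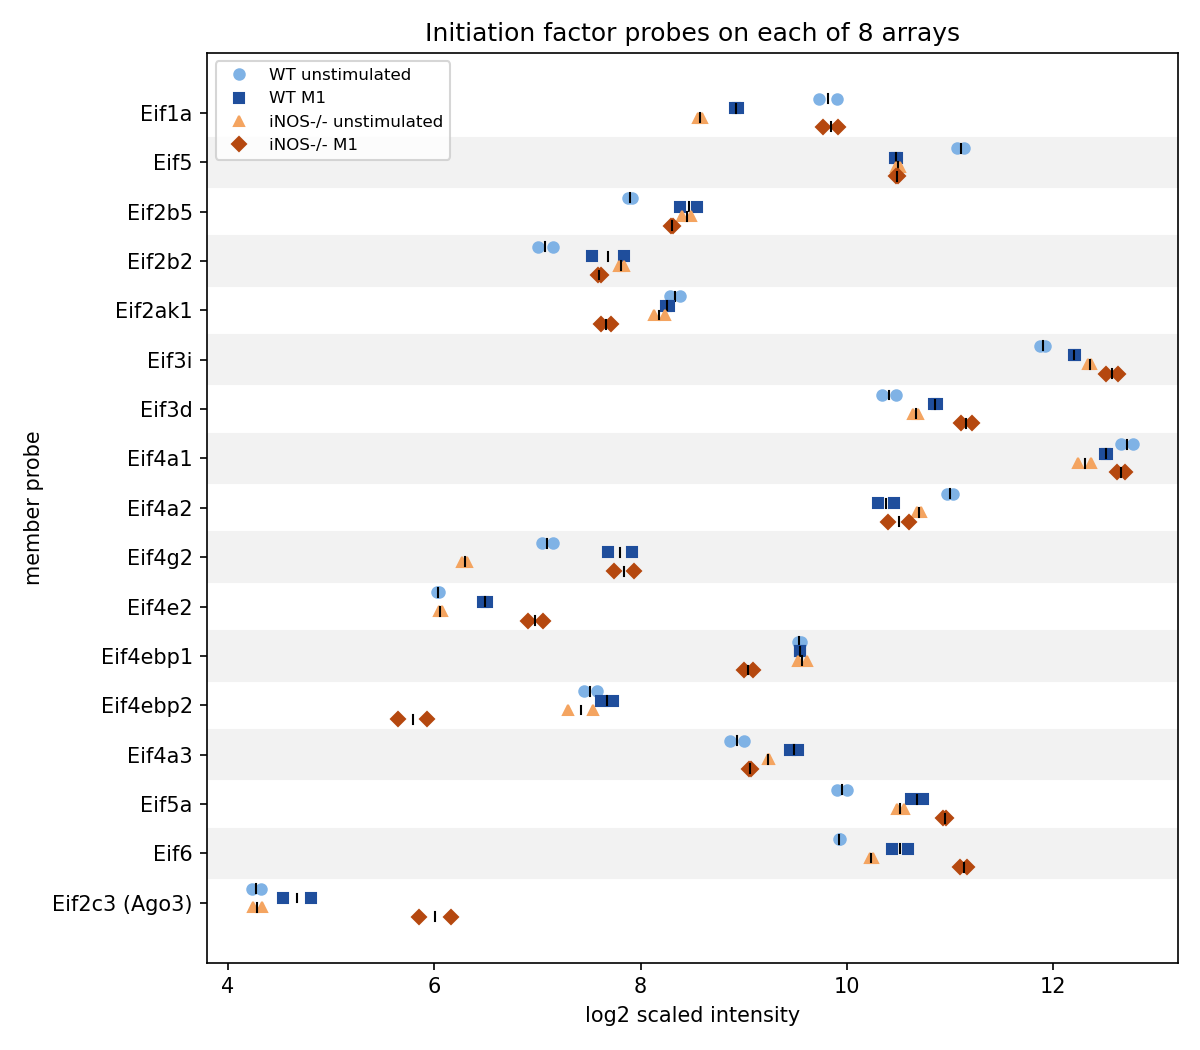
Log2 scaled intensity of 17 member probes on each of the 8 arrays, 2 points per group with a bar at their mean. Eif1a falls in WT and rises in iNOS-/- cells, Eif4ebp2 reads 5.65 and 5.93 on the iNOS-/- M1 arrays against 7.30 to 7.73 elsewhere, and WT unstimulated arrays stand apart for Eif5, Eif2b5 and Eif2b2.

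Both tested inhibitors of eIF4E fell in iNOS-/- cells. Of the 4 tested probes of eIF4E inhibitors and binders, 2 fell and 1 rose there (50% and 25%). Of all probes, 25.1% fell and 25.2% rose. Eif4ebp2, encoding 4E-BP2, was measured by 1 probe, whose first 30 bases are given because it gave the largest called fall of a member in the iNOS-/- response.
Eif4ebp2, from transcript base 1467: gagagcagcacaggctaagacagtgtattc
It read 7.45 and 7.58 on WT unstimulated arrays, 7.62 and 7.73 on WT M1, 7.54 and 7.30 on iNOS-/- unstimulated, and 5.65 and 5.93 on iNOS-/- M1. The iNOS-/- M1 arrays lay far below the other 6. Eif4ebp2 fell by 1.63, or 3.09-fold, in iNOS-/- cells (SE 0.145, adjusted p = 0.000563), while the WT value was 0.16 (adjusted p = 0.44). It was 1.88 lower, or 3.69-fold, in iNOS-/- than in WT M1 cells (adjusted p = 0.000507), and the responses differed by -1.79 (adjusted p = 0.00228). Eif4ebp1, encoding 4E-BP1, read between 9.52 and 9.61 on 6 arrays and 9.09 and 9.0 on the iNOS-/- M1 arrays. It fell by 0.52 in iNOS-/- cells (adjusted p = 0.00423), and the responses differed by -0.53 (adjusted p = 0.0175), not called without WT unstimulated 1 (-0.52), WT unstimulated 2 (-0.49) or iNOS-/- unstimulated 2 (-0.51). Eif4enif1, a binder that takes eIF4E into the nucleus, went the other way with its brighter probe, at base 3105, which rose by 0.50 in iNOS-/- cells (adjusted p = 0.0103, not called without iNOS-/- unstimulated 2, at 0.48).

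Eif5a, which helps ribosomes through difficult peptide bonds, and Eif6, which keeps free large ribosomal subunits apart from small ones, rose in both genotypes. The brighter Eif5a probe, at base 1004, read 10.01 and 9.90, then 10.62 and 10.73, in WT cells and 10.49 and 10.55, then 10.93 and 10.96, in iNOS-/- cells. It rose by 0.72 in WT cells (adjusted p = 0.00346) and by 0.43 in iNOS-/- cells (adjusted p = 0.0115), which turned to -0.10 under quantile normalization and neqc and was 0.39, not called, without iNOS-/- unstimulated 1. It was 0.56 higher in iNOS-/- cells before stimulation (adjusted p = 0.00797), and 0.48 without WT unstimulated 2, where it was not called. Eif6 read 9.93 and 9.93, then 10.44 and 10.59, in WT cells and 10.22 and 10.25, then 11.10 and 11.17, in iNOS-/- cells. It rose by 0.58 (adjusted p = 0.0067) and 0.89 (adjusted p = 0.000832), and was 0.38 or more in iNOS-/- cells under every scaling run. Its responses differed by 0.31, which did not pass the test (adjusted p = 0.11).

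Eif4a3, a helicase of the exon junction complex that marks spliced mRNA and is no part of eIF4F, read 8.87 and 9.0, then 9.45 and 9.53, in WT cells and 9.24 and 9.23, then 9.07 and 9.06, in iNOS-/- cells. It rose by 0.56 in WT cells (adjusted p = 0.0072), and the responses differed by -0.73 (adjusted p = 0.0075).

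The Argonaute genes listed under Eif2c names were dim. Eif2c3 (Ago3) had 3 tested probes that overlap, shown with their 22 common bases in capitals because they read the same stretch and count as 1 measurement.
Eif2c3, probe from transcript base 2498: gcatattaCGCTCACCTGGTGGCATTCAGA
Eif2c3, probe from transcript base 2504: attaCGCTCACCTGGTGGCATTCAGAgcca
Eif2c3, probe from transcript base 2526: CGCTCACCTGGTGGCATTCAGAgccagata
The first read 4.32 and 4.23, then 4.80 and 4.53, in WT cells and 4.24 and 4.33, then 5.85 and 6.16, in iNOS-/- cells. It rose by 1.72 in iNOS-/- cells (SE 0.152, adjusted p = 0.000539), the other two by 2.19 and 2.06, and the WT values, 0.27 to 0.39, did not pass the test. The 3 responses differed between genotypes by 1.33, 1.79 and 1.79 (adjusted p 0.00654, 0.00885 and 0.0141). A separate probe at base 658 was detected on 1 array. Eif2c4 (Ago4) read 2.66 and 2.60 on WT unstimulated arrays and 3.57 and 4.33 on WT M1, a rise of 1.32 (adjusted p = 0.018) that was 0.17 with values under 16 raised to 16, and was not called without WT unstimulated 1 (1.33) or 2 (1.27). Eif2c2 (Ago2) read between 4.66 and 5.75 and was called in no comparison.

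**Figure D3:**
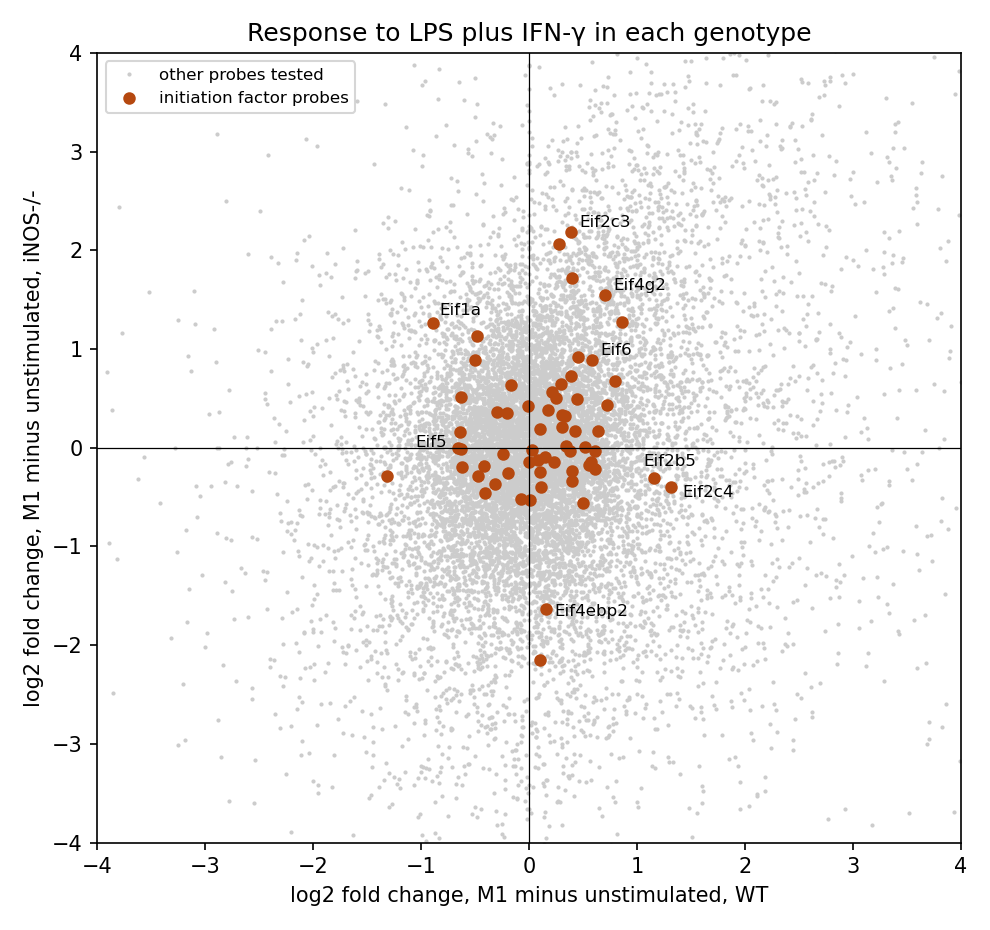
Log2 fold change on activation in iNOS-/- cells against that in WT cells for the 13868 probes tested, with the 63 member probes in colour. The axes stop at 4 and leave out 387 probes, none of them members; Eif1a is the one member that fell in WT and rose in iNOS-/- cells by the test.

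**Figure D4:**
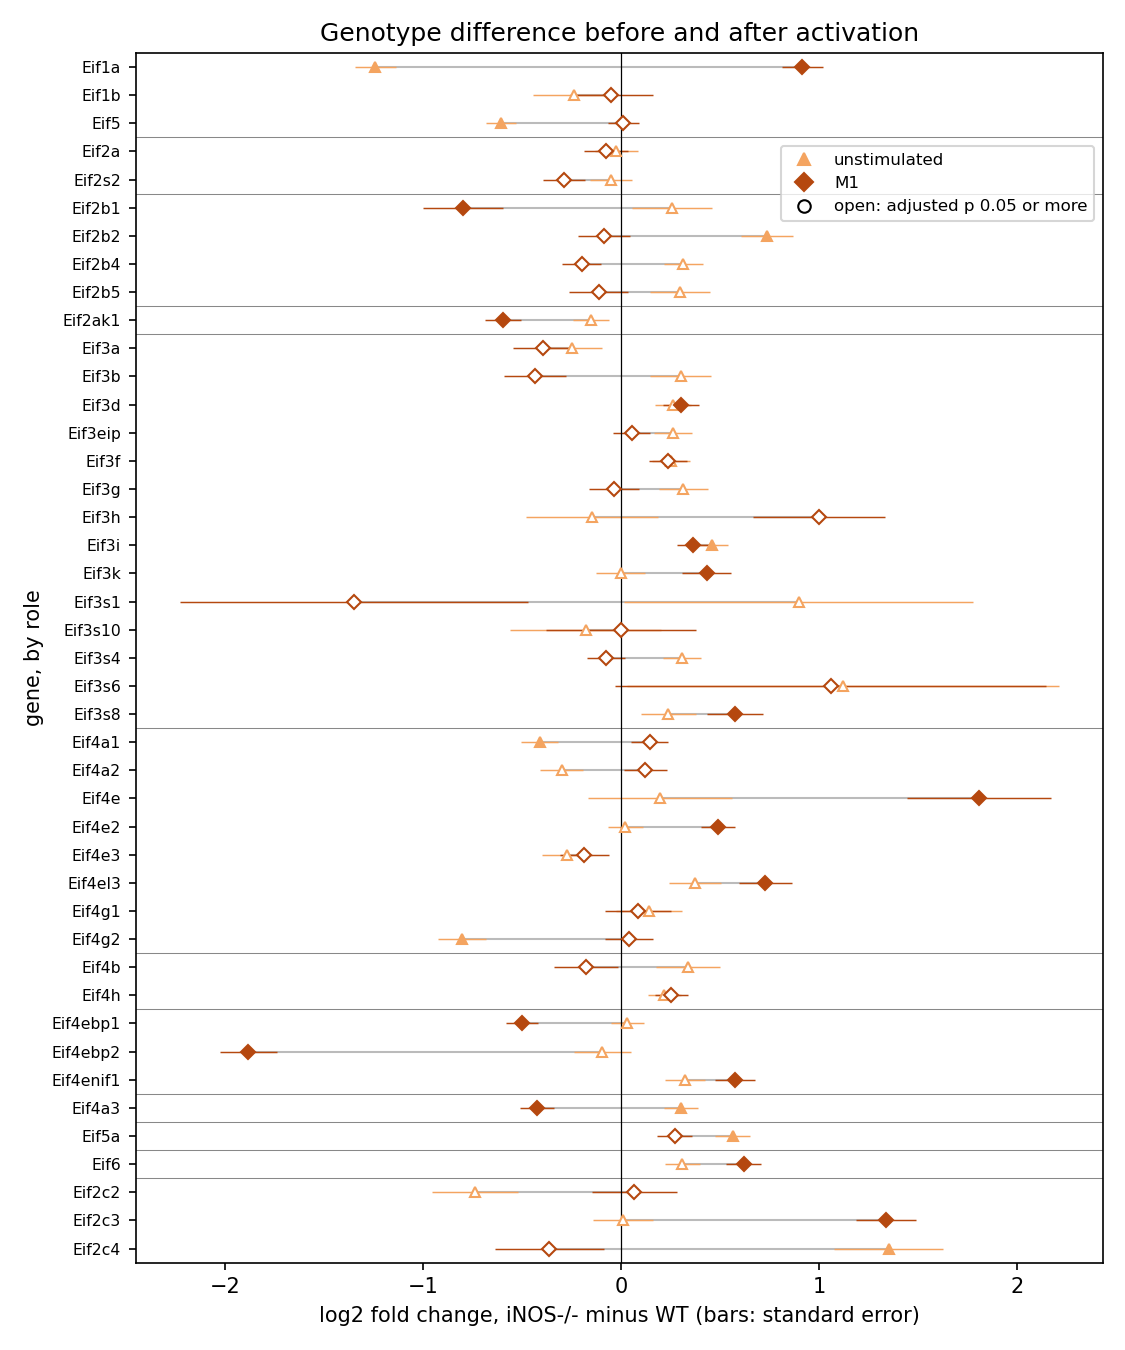
Genotype difference (iNOS-/- minus WT, log2, with standard error) before and after activation for the 43 tested symbols, 1 probe each (the brightest tested), grouped by role and filled where the adjusted p was under 0.05. Eif1a moves from -1.24 to 0.92 and Eif4ebp2 from -0.09 to -1.88.

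Other genes of the pathway were taken from lists of cap, poly(A) and recycling partners, elongation factors, mTOR and MNK inputs and the integrated stress response. Of their 55 tested probes, 17 rose and 11 fell in the WT response, and 22 rose and 10 fell in the iNOS-/- response. These are 30.9% and 20% against 20.8% and 14.3% of all probes, and 40% and 18.2% against 25.2% and 25.1%. Before stimulation 11 were higher and 9 lower in iNOS-/- cells (20% and 16.4%, against 16.7% and 15.4%), and after it 16 and 11 (29.1% and 20%, against 22.9% and 25.3%). The integrated stress response, the program set off when eIF2 is phosphorylated, had 7 of 10 probes lower and 1 higher in unstimulated iNOS-/- cells, where 15.4% of all probes were lower. After activation 4 were higher and 1 lower (40% and 10%, against 22.9% and 25.3%). These lists, and the genes named from them below, were followed under the main scaling only.

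Ppp1r15b, which directs a phosphatase to eIF2, read 5.50 and 5.51, then 6.04 and 5.87, in WT cells and 5.06 and 4.98, then 8.23 and 7.99, in iNOS-/- cells. It rose by 3.09 in iNOS-/- cells (adjusted p = 4.73e-05) and by 0.44 in WT cells (adjusted p = 0.036), and the responses differed by 2.65 (adjusted p = 0.000472). Myd116 (Ppp1r15a), the inducible counterpart, rose by 2.20 in iNOS-/- cells (adjusted p = 0.000119). Ddit3, a transcription factor of the stress response, fell in both genotypes, by 1.80 and 1.04 with 1 probe (adjusted p = 0.00318 and 0.0116) and by 0.87 and 0.46 with its brighter one (adjusted p = 0.00194 and 0.00912). Impact, a regulator of the kinase GCN2, fell by 1.18 in WT cells (adjusted p = 0.00265).

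Sesn2, an inhibitor of mTOR signalling, moved oppositely in the 2 genotypes. It read 5.22 and 5.44, then 7.09 and 6.87, in WT cells and 6.81 and 6.72, then 5.11 and 5.55, in iNOS-/- cells. It rose by 1.65 in WT (adjusted p = 0.00248) and fell by 1.44 in iNOS-/- cells (adjusted p = 0.00204). Mknk1 and Mknk2, the kinases that phosphorylate eIF4E, fell in iNOS-/- cells by 1.13 (adjusted p = 0.00074) and 0.92 (adjusted p = 0.000644). Denr, which recycles the small subunit, rose by 1.85 and 1.74 with its 2 probes in iNOS-/- cells. Eef2k, the kinase of the elongation factor eEF2, was not well above background on the iNOS-/- M1 arrays and was at least 1.42-fold lower there than on the unstimulated ones (adjusted p = 0.000229).

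Of 70 tested ribosomal protein probes, 28 were higher and none lower in unstimulated iNOS-/- cells (40% higher, against 16.7% of all probes). After activation 32 were higher and 2 lower (45.7% and 2.86%, against 22.9% and 25.3%). In the WT response 17 rose and 3 fell (24.3% and 4.29%, against 20.8% and 14.3%). In the iNOS-/- response 13 rose and 5 fell (18.6% and 7.14%, against 25.2% and 25.1%). Without the Argonautes and Eif4a3, 57 member probes remained. Of these, 8 were higher and 6 lower in iNOS-/- than in WT cells before stimulation, against 16.7% and 15.4% of all probes. This split moved with the scaling. It was 20 and 7 under neqc, 18 and 6 under quantile normalization, and 13 and 6 once the fitted line had an intercept. Over all 13868 probes these were, in the same order, 2722 and 2953, 2310 and 2216, and 2158 and 2592. Of 30 cytosolic aminoacyl-tRNA synthetase probes, 14 rose and none fell in the WT response (46.7% higher, against 20.8%). In the iNOS-/- response 10 rose and 10 fell (33.3% each, against 25.2% and 25.1%). Between the genotypes 11 were higher and 2 lower in iNOS-/- cells before stimulation (36.7% and 6.67%, against 16.7% and 15.4%). After it these were 9 and 9 (30% each, against 22.9% and 25.3%). The ribosomal protein and synthetase counts were made under the main scaling only, so whether they move with the scaling was not tested.

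Promoters from RefSeq (GRCm38.p6, 250 bases before to 50 after a gene's start) were found for 37 of the 48 member genes, 50 promoters in all with several for some genes. The E-box CACGTG, the same on both strands, was in promoters of 10 of the 37 genes (27.0%) and of 8.09% of all 27025 genes listed. The ETS motif CCGGAAGT on either strand was in 8 genes (21.6%) against 4.31%. A gene with several promoters counts if any of them matches. Counted by promoter, the E-box was in 24.0% of the 50 and 7.15% of all, and the ETS motif in 20.0% and 3.89%. The genes listed were not limited to those detected on the arrays. The CRE TGACGTCA was in 0 of the 50 promoters and in 1.79% of all 32851. No motif lies within another, but the E-box and the CRE share the letters ACGT. Upstream stretches of 100 bases are printed for members with a match and a single listed promoter, the motif in capitals.
Eif3f, chr7:108934315-108934414, plus strand: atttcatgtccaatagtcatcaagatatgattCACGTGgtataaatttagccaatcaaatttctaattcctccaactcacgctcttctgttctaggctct
Eif4h, chr5:134639410-134639509, minus strand: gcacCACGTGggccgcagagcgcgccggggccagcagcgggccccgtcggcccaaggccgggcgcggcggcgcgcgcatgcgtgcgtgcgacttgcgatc
Eif3d, chr15:77970825-77970924, minus strand: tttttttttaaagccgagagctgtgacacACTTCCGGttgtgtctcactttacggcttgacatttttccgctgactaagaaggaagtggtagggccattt
Eif3l (probe symbol Eif3eip), chr15:79075123-79075222, plus strand: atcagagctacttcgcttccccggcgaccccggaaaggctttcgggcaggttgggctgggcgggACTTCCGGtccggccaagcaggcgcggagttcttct
Eif3f and Eif4h hold the E-box and Eif3d and Eif3l the ETS motif. A match describes the letters in the window and not binding.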

How the data were processed

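RNA of 8 samples, 2 in each of 4 groups taken from the labels, was measured on Illumina MouseRef-8 v2.0 bead arrays (the methods and a label protocol name MouseWG-8). The authors deposited, for every probe, its mean bead intensity without normalization between arrays, together with a detection p-value. The submitters' processing notes name GenomeStudio and limma 3.14.4. The methods name background subtraction, the file header does not, and 25.2% to 27.2% of the deposited intensities per array lie below 0, so nothing further was subtracted here. The table left 0 value columns without a sample.

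Arrays were brought to one scale by rank-invariant probes (ranks between 0.5 and 0.9 of all that moved by less than 0.05), fitting a line without intercept to the average array (MASS 7.3.60.0.1). Values under 1 became 1 before log2. Probes needed a detection p-value under 0.05 on 2 or more arrays, and 11833 to 12673 probes were detected per array. limma 3.58.1 (R 4.3.3) fitted the 4 group means on the 8 arrays together, with 5 contrasts and Benjamini-Hochberg adjustment over 13868 probes. The small number of arrays limits the precision, with a median SE over members of 0.125 (0.176 for the difference of responses). On simulated arrays the procedure recovered large changes but called more unchanged probes than the adjustment aims for, so counts are approximate.

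Named per comparison were at most 5 called members in each direction by size of change, if detected throughout the higher group and without overlapping values, as well as the highest-mean probe of each role, paralog sets, disagreeing probes, members called oppositely in the genotypes and the leading pathway genes. Eif3d, Eif3k, Eif3s8, Eif4el3, Eif4enif1, Eif2c2, Mknk1 and Mknk2 were added after their values were seen. The members and lists were chosen with earlier results of these data known. Folds against undetected groups are bounds from the lowest signal detected. The alternatives were other scalings, floors, filters, models and left-out arrays.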

Additional observations from a re-analysis of the deposited data

Results flagged for a closer look

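The response to activation differed between the genotypes, by the test of the difference itself (iNOS-/- response minus WT response, log2), for the following probes. It was 2.16 for Eif1a, 1.79, 1.79 and 1.33 for the overlapping Eif2c3 probes, and 1.39 for the Eif4g2 probe at base 3480. It was -1.79 for Eif4ebp2, -1.71 for Eif2c4, -1.47 for the Eif2b5 probe at base 1888, -1.06 for the Eif2b1 probe at base 895 and -0.82 for Eif2b2. The differences of Eif1a, Eif4ebp2, Eif2c3 and Eif2b5 were called in every alternative run, whereas Eif2c4 gave -0.26 with values under 16 raised to 16 and was not called in 6 of 18 alternatives, 4 of them leaving out 1 array. That of Eif2b2 was not called without the first unstimulated array of either genotype. The difference of Eif2b1 was not called in 8 of 18 alternatives, including no detection filter and leaving out any 1 of 6 arrays (-1.16 to -0.79). That of Eif4g2 at base 3480 was not called in 5 of 17, including no detection filter and leaving out any 1 of 4 arrays (1.21 to 1.45).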

How the results depend on the processing

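Of 114 calls of a member in a comparison, 95 kept their direction and call under neqc, 9 lost the call and 10 reversed; under quantile normalization these were 89, 15 and 10. The reversed values under neqc and quantile normalization were, in the iNOS-/- response, -0.0514 and -0.0518 for Eif3d, -0.36 and -0.36 for Eif3f, -0.31 and -0.31 for Eif4a1 at base 1586, -0.0876 and -0.0889 for Eif4a1 at base 1188, -0.30 and -0.30 for Eif4h and -0.10 and -0.10 for Eif5a at base 1004. In iNOS-/- against WT M1 cells they were -0.14 and -0.14 for Eif3d, -0.0701 and -0.0704 for Eif3i and -0.0219 and -0.0221 for Eif5a at base 122, and in the difference of responses -0.0617 and -0.062 for Eif4a1. The cause was not tested.

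The counts called were 22 in the WT response, 27 in the iNOS-/- response, 16 before and 24 after stimulation, and 25 for the difference. With changes of at least 2-fold alone they were 2, 8, 3, 6 and 9 of 63. Of all probes, 15.2%, 28.8%, 14.1%, 24.8% and 27.7% were called at 2-fold. Before stimulation, neqc gave 30, quantile normalization 27 and an intensity trend 32, against 40.9%, 32.6% and 39% of all probes. For the difference neqc gave 39 and 1 probe per gene 15, against 51% and 45.5%. Fitting the 4 arrays of the comparison gave 14 in the WT response and 14 after stimulation, against 27.2% and 37.9%. Leaving out 1 array gave 12 to 21, 16 to 25, 7 to 18, 14 to 21 and 13 to 19. The fall was over 1.5 times without WT unstimulated 1 (12 in the WT response, 7 before stimulation, 13 for the difference), WT unstimulated 2 (13, and 9 before stimulation), WT M1 1 (16 for the difference), WT M1 2 (14 in the WT response, 14 after stimulation), iNOS-/- unstimulated 1 (16, 8 before stimulation, 14 for the difference) and iNOS-/- M1 1 (15 after stimulation). With the replicate number as a block (replicate block) the counts were 19, 23, 14, 21 and 18. Of all probes, 31%, 47.7%, 28.1%, 45.3% and 38.4% were called with it. Over probes, same-numbered arrays did not deviate together from their group means (r -0.0375 to 0.0247). With 2 arrays per group this cannot decide whether they share a mouse, culture or batch, and the labels do not say. Low intensity limits Eif4e, Eif2c4 and the dim Eif3b probe.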
